A study of Mus musculus with 8 samples.

Results

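Gene counts of 10 transcription factors and cofactors of the heart and the lateral mesoderm were compared across 8 RNA-seq libraries of mouse embryonic stem cells (mESCs) and their derivatives. The members, chosen by name, were Hand2, Isl1, Tbx20, Tbx5, Nkx2-5, Mef2c, Gata5, Foxf1a (the older symbol of Foxf1), Smarcd3 and Myocd, and all 10 were found among the 37620 genes counted. Of these genes, 16961 passed a filter on low counts (at least 10 counts in at least 2 libraries), among them 10 of the 10 members.

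All mESC cultures were grown in serum-containing medium without feeder cells. The R1 line was kept in 2i (CHIR99021, an inhibitor of GSK3, with PD0325901, an inhibitor of MEK; 1 library, day 5), in 2iJ (2i with a JAK inhibitor; 1 library, day 5) or in 2iJ+B-A (2iJ with BMP4 and an inhibitor of the receptor kinase ALK5; 3 libraries, days 2, 5 and 11). A further library came from another line, which carries a green fluorescent protein reporter of Cdx2, after cells positive for the reporter had been sorted on day 2 of 2iJ+B-A. Mesoderm progenitors of the R1 line (2 libraries, days 3 and 4) were made from embryoid bodies, in a medium with no serum among its listed parts, and given BMP4, Activin A and Wnt3a from day 2. According to the methods of the study, the day 4 cells had in addition received IWP-2, an inhibitor of Wnt secretion, on day 3, so the day and this treatment cannot be told apart. The mesoderm and mESC groups thus differ in medium and culture form as well as in cell type. The sample codes also begin with different letters for mesoderm, sorted and unsorted mESC libraries, and a batch along them cannot be told apart from the groups. Nothing in the labels says whether libraries of a group came from separate cultures. The p-values therefore measure the spread between days, which may hold change with time.

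The heart forms from lateral plate mesoderm that leaves the primitive streak, and the cells that build it are grouped into a first and a second heart field. A small set of transcription factors of the GATA, T-box, NK homeodomain, MEF2, HAND and LIM homeodomain families acts together there, on shared enhancers and on each other's genes. These proteins work with chromatin remodelling complexes and with cofactors that bind DNA through a partner. The structural genes of heart muscle are among their targets. Embryonic stem cells in 2i hold a state before gastrulation, in which such genes are usually low.

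Levels are given as CPM, the counts of a gene scaled to a common library total of gene counts. Total gene counts were 19810855 in the sorted library and between 24532587 and 31453888 in the other 7, so that 3 counts, taken as the smallest level that can be told from 0, correspond to between 0.0954 and 0.151 CPM. The sorted library also stood apart in alignment, with 29.7% of read pairs unmapped against 2.17% to 3.85% in the others. Of its uniquely aligned read pairs, 29.6% were assigned to no gene on the strand used, against 11.3% to 16.4% in the others. Markers were read for each labelled cell type. The summed level of 6 pluripotency genes was between 2846 and 4070 CPM in the unsorted mESC libraries, and 900.2 and 83.9 CPM in the mesoderm progenitors of days 3 and 4. The summed level of 8 primitive streak genes was 1862 CPM on mesoderm day 3 and 93.5 CPM on day 4, against 6.77 to 23.4 CPM in the unsorted mESC libraries and 6.41 CPM in the sorted cells.

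In a description of genes chosen with earlier results of these data known, 10 of 10 members had their highest level in the mesoderm progenitors of day 4, where 21.1% of all tested genes had theirs. The day 4 level was between 13.1 CPM (Nkx2-5) and 406 CPM (Hand2), and it exceeded the next highest library between 1.45 times (Foxf1a) and 47.3 times (Hand2). In 6 of 10 members it was more than 10 times the next highest. The summed level of the members was 1209 CPM on mesoderm day 4, against 45.4 CPM on mesoderm day 3, 27.4 CPM in the sorted cells and 8.38 to 38.9 CPM in the unsorted mESC libraries. In bulk RNA, fewer cells of a type and less RNA per cell cannot be told apart, and this holds for every level given here.

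**Figure D1:**
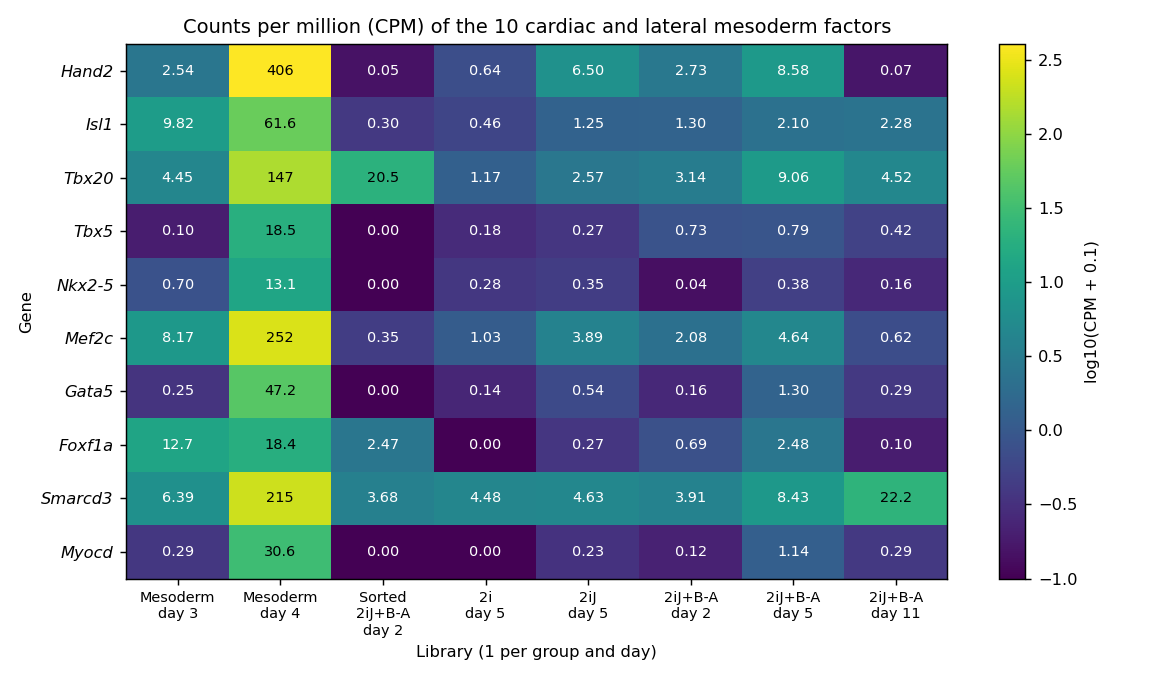
Heat map of the level of each member (rows) in each of the 8 libraries (columns), with the CPM printed in each cell and colour on a log10(CPM + 0.1) scale. The mesoderm day 4 column holds the highest value of every row, from 13.1 CPM for Nkx2-5 to 406 CPM for Hand2, while the sorted library shows 0 counts for Tbx5, Nkx2-5, Gata5 and Myocd.

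Hand2 encodes a basic helix-loop-helix factor of the second heart field, the branchial arches and the limb bud, and lies at chr8:59799780-59803314 on the plus strand of NCBIM37. Its level was 2.54 CPM on mesoderm day 3 and 406 CPM on day 4. In the mESC cultures it was 0.639 CPM in 2i, 6.50 CPM in 2iJ, and 2.73, 8.58 and 0.0651 CPM on days 2, 5 and 11 of 2iJ+B-A. The sorted library held 1 Hand2 count, a level of 0.0505 CPM. Hand2 was thus the member with the highest level anywhere and its counts differed widely within 2iJ+B-A, where day 5 held 270 and day 11 held 2.

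Isl1 encodes a LIM homeodomain factor that marks progenitors of the second heart field (chr13:117088478-117099896, minus strand). Its level was 9.82 CPM on mesoderm day 3 and 61.6 CPM on day 4. In 2i and 2iJ it was 0.462 and 1.25 CPM, in 2iJ+B-A it was 1.30, 2.10 and 2.28 CPM on days 2, 5 and 11, and in the sorted cells 0.303 CPM. Both mesoderm libraries lay above every other library, and the 3 days of 2iJ+B-A lay close together (1.89 ± 0.518 CPM, SD, n = 3).

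The 2 T-box members act in different parts of the forming heart. Tbx20 (chr9:24527648-24578746, minus strand) is used broadly in the early heart, and Tbx5 (chr5:120284672-120335227, plus strand) marks the first heart field and the forelimb. Tbx20 was at 4.45 CPM on mesoderm day 3 and 147 CPM on day 4, at 1.17 CPM in 2i, 2.57 CPM in 2iJ, and 3.14, 9.06 and 4.52 CPM on days 2, 5 and 11 of 2iJ+B-A. The sorted cells held 20.5 CPM of Tbx20, their highest level of any member. Tbx5 was at 0.0954 CPM (3 counts) on mesoderm day 3, 18.5 CPM on day 4 and 0 counts in the sorted cells, which allows up to 0.151 CPM. In the 5 unsorted mESC libraries Tbx5 stayed between 0.178 and 0.795 CPM. The counting intervals of days 2 and 5 of 2iJ+B-A (from 0.464 and 0.538 CPM) lay above that of mesoderm day 3 (0.032 to 0.280 CPM). Those of 2i (5 counts), 2iJ (7 counts) and day 11 of 2iJ+B-A overlapped it.

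Nkx2-5 encodes an NK homeodomain factor of cardiac progenitors and muscle (chr17:26975609-26978510, minus strand). It was at 0.699 CPM on mesoderm day 3 and 13.1 CPM on day 4, the lowest day 4 level in CPM. It was at 0.284 CPM in 2i, 0.350 CPM in 2iJ, 0.0408, 0.382 and 0.163 CPM on days 2, 5 and 11 of 2iJ+B-A, and at 0 counts in the sorted cells. Outside day 4 of the mesoderm culture this gene therefore had at most 22 counts in a library.

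Mef2c encodes a MADS-box factor of the second heart field and of muscle (chr13:83643033-83806684, plus strand). It was at 8.17 CPM on mesoderm day 3 and 252 CPM on day 4. In 2i and 2iJ it was at 1.03 and 3.89 CPM, in 2iJ+B-A at 2.08, 4.64 and 0.618 CPM on days 2, 5 and 11, and in the sorted cells at 0.353 CPM. Gata5, a zinc finger factor of endoderm, endocardium and early heart (chr2:180059838-180069404, minus strand), was at 0.254 and 47.2 CPM on mesoderm days 3 and 4. Its level was 0.142 CPM in 2i, 0.545 CPM in 2iJ, 0.163, 1.30 and 0.293 CPM on the 3 days of 2iJ+B-A and 0 counts in the sorted cells. Mef2c was above the floor of 3 counts in all libraries, and Gata5 exceeded 14 counts in 2 of 8.

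Foxf1a, a forkhead factor of splanchnic and extraembryonic mesoderm (chr8:123608286-123610851, plus strand), had another profile. Its levels on mesoderm days 3 and 4 were 12.7 and 18.4 CPM, followed by 2.48 CPM on day 5 of 2iJ+B-A and 2.47 CPM in the sorted cells. It was at 0.693 and 0.0977 CPM on days 2 and 11 of 2iJ+B-A, at 0.272 CPM in 2iJ and at 0 counts in 2i. Its day 3 level was 69.0% of its day 4 level, where Isl1, the next of the members by this measure, was at 15.9%.

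The remaining members are cofactors. Smarcd3 (Baf60c; chr5:24096636-24107830, minus strand) is a subunit of the BAF chromatin remodelling complex in the heart, and Myocd (myocardin; chr11:64990063-65083491, minus strand) is a coactivator of serum response factor on muscle genes. Smarcd3 was at 6.39 and 215 CPM on mesoderm days 3 and 4, at 4.48 CPM in 2i, 4.63 CPM in 2iJ, 3.91, 8.43 and 22.2 CPM on days 2, 5 and 11 of 2iJ+B-A, and 3.68 CPM in the sorted cells. Myocd was at 0.286 and 30.6 CPM on mesoderm days 3 and 4, at 0.234 CPM in 2iJ, at 0.122, 1.14 and 0.293 CPM on the 3 days of 2iJ+B-A, and at 0 counts in 2i and in the sorted cells. Smarcd3 thus had at least 73 counts in every library, and Myocd had at most 36 counts outside mesoderm day 4. Gata5 shares 258 of its 3277 exon bases with Gm14318 on the opposite strand, and Smarcd3 shares 2466 of its 4545 exon bases with Chpf2 on the opposite strand. Between 6.86% (mesoderm day 4) and 75.67% (sorted cells) of the Smarcd3 counts on both strands lay on the opposite one. Counts by strand separate these genes only as far as the library chemistry does, and in all libraries between 5.03% and 6.47% of gene counts lay on the strand not used.

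Because CPM grows with transcript length, the order of levels between members was read per kilobase of exon (CPM per kb). On mesoderm day 4, Hand2 was at 182 CPM per kb, above 98.4% of tested genes. Smarcd3 (47.2), Mef2c (34.1), Tbx20 (32.7), Isl1 (24.4), Foxf1a (15.1), Gata5 (14.4) and Nkx2-5 (8.56 CPM per kb) came next. Tbx5 and Myocd were last at 4.71 and 4.61 CPM per kb, above 52.1% and 51.7% of tested genes. The order was set by 1 library, so whether neighbours in it differ beyond the spread between cultures could not be tested. The counting intervals of the neighbours Mef2c and Tbx20, of Foxf1a and Gata5, and of Tbx5 and Myocd overlapped, and those of the other neighbours did not.

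RefSeq promoter windows (GRCm38.p6) were held for 7 of 10 members, and none for Tbx5, Foxf1a and Myocd. The 250 bases before the RefSeq start were used, and each of the 9 windows (3 for Mef2c) was found once in NCBIM37. As members that reached their highest level in the same library, they were searched for 3 words of the families to which they belong, on both strands. The GATA words were AGATAA, or the same with T as its first letter, G as its last, or both. The T-box word was AGGTGT. The NKX2 word was TNAAGTG. No word contains another. The GATA words were in 3 of 9 windows, where 26.5% of 32851 windows of all genes held one. The T-box word was in 1 of 9 windows (11.8% of all) and the NKX2 word in 0 of 9 (10.1% of all). The windows of Hand2, the member with the highest level, and of Isl1 and Nkx2-5, which rose in the edgeR test of mesoderm progenitors against 2iJ+B-A, are shown from 5′ to 3′ in the direction of the gene, with GATA words in capitals.
Hand2 (chr8:59799530-59799779, plus strand, NCBIM37): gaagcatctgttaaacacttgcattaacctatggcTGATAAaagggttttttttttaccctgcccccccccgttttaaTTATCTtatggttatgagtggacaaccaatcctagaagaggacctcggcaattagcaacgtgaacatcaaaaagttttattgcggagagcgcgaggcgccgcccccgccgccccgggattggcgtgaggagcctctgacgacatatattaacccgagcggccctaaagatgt
Isl1 (chr13:117099897-117100146, minus strand, NCBIM37): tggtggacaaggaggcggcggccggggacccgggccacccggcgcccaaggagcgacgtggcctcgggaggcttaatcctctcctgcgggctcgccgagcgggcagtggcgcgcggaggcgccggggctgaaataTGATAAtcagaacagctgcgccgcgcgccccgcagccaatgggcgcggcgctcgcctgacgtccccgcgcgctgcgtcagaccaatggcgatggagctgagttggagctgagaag
Nkx2-5 (chr17:26978511-26978760, minus strand, NCBIM37): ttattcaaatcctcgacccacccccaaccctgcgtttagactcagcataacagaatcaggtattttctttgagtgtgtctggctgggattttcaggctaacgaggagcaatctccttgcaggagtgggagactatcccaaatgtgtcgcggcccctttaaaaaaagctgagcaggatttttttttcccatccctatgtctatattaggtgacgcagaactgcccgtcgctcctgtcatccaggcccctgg
The Hand2 window holds TGATAA beginning 215 bases before the start and, 172 bases before it, TTATCT, which is a GATA word read on the other strand. In the Isl1 window TGATAA begins 115 bases before the start. The Nkx2-5 window holds none of the words searched. A GATA word was also in the window of Smarcd3, and the T-box word in 1 of the 3 windows of Mef2c. Such a match describes letters and not a bound site.

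The step from day 3 to day 4 of the mesoderm culture was the widest of the pairs of libraries compared, by the median log2 ratio of the members. It compares 1 library with 1 library, so intervals cover counting error only and no test across cultures was possible. In 9 of 10 members the day 4 level was at least 4 times the day 3 level, where 3.18% of tested genes reached that ratio. The median log2 ratio of the members was 5.06, against 0.02 over all tested genes. The ratio was 194 for Tbx5 (95% interval 66.2 to 945, with 3 counts on day 3), 186 for Gata5 (94.0 to 431), 160 for Hand2 (128 to 201) and 107 for Myocd (56.1 to 235). It was 33.6 for Smarcd3 (29.2 to 38.8), 33.0 for Tbx20 (27.9 to 39.4), 30.8 for Mef2c (27.2 to 35.0) and 18.7 for Nkx2-5 (12.2 to 30.1). Isl1 differed by 6.27 times (5.56 to 7.10). Foxf1a differed by 1.45 times (1.27 to 1.65), with 400 counts on day 3 and 571 on day 4.

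**Figure D2:**
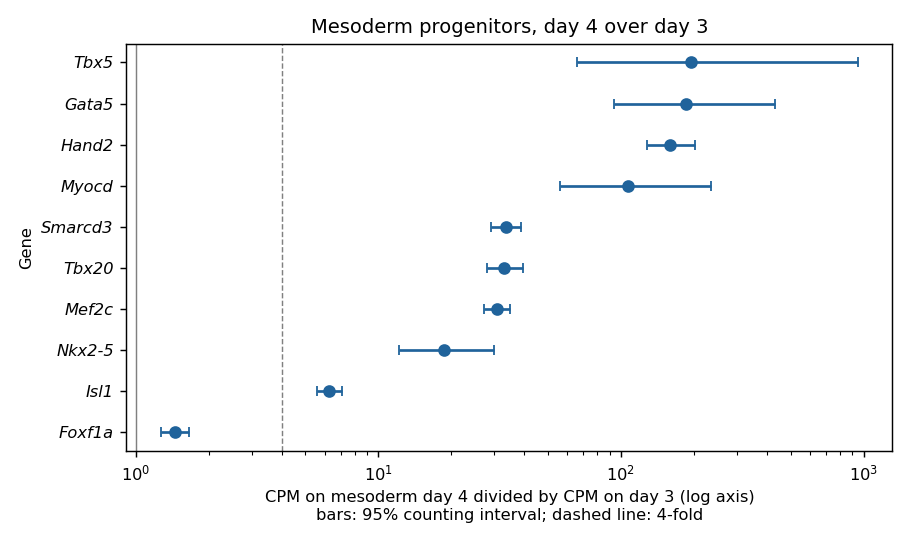
Ratio of the mesoderm day 4 level to the day 3 level for each member, on a log axis, with 95% counting intervals from 1 library a day. The points run from 1.45 for Foxf1a to 194 for Tbx5, and 9 of 10 lie to the right of the dashed 4-fold line.

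Primitive streak genes differed in the other direction between these libraries. All 8 of the list were at least 4 times lower on day 4 (background 4.65%), among them T, the founding T-box gene of early mesoderm, at 547 and 6.30 CPM, and Mesp1, a factor of the earliest cardiac mesoderm, at 181 and 6.36 CPM. Of 21 matched cardiac muscle genes, 10 were at least 4 times higher on day 4 (3.18% of tested genes). Among these were Tnnt2 (cardiac troponin T, 0.286 and 19.9 CPM) and Tnni1 (39.1 CPM on day 4). Myl7 (an atrial light chain, 2.16 and 25.1 CPM) and Hcn4 (a pacemaker channel, 1.21 and 23.6 CPM) were others. Day 4 was the highest of the 8 libraries for 7 of the 21. Of the 21 genes, 13 were higher on day 4 at any ratio, and 2 were at least 4 times lower. Nppa and Pln had 0 counts in both mesoderm libraries. Actc1, cardiac actin, was among the lower genes and was at 20.9 CPM on day 3 and 1.13 CPM on day 4. Ttn was at 23.0 CPM on day 4, below the 79.4 CPM of 2iJ, and Atp2a2 made up most of the summed level of this list in every library. On day 4, Myh6 (4.91 CPM), Ryr2 (23.0 CPM) and Mybpc3 (0.452 CPM) also lay below at least 1 mESC library.

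The tested comparison set the 2 mesoderm libraries against the 3 of 2iJ+B-A. In edgeR's quasi-likelihood test with Benjamini-Hochberg adjustment over all tested genes, 4 of 10 members were higher in the mesoderm progenitors and 0 lower, where 11.5% of tested genes were higher, 15.5% lower and 27.0% changed in all. Isl1 rose by 4.26 on the log2 scale (SE 0.77, adjusted p = 0.0118, edgeR), Mef2c by 5.76 (SE 1.42, adjusted p = 0.0294), Nkx2-5 by 5.10 (SE 1.31, adjusted p = 0.0333) and Foxf1a by 3.85 (SE 1.05, adjusted p = 0.0392). These are also the 4 of 10 members for which both mesoderm libraries lay above all 3 of 2iJ+B-A, as they did in 26.2% of tested genes.

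The other 6 members had fold changes of similar size that did not pass. The log2 difference in edgeR was 5.78 for Hand2 (SE 2.03, adjusted p = 0.081), 5.35 for Gata5 (SE 1.79, adjusted p = 0.0715) and 4.90 for Myocd (SE 1.68, adjusted p = 0.0758). It was 3.79 for Tbx20 (SE 1.22, adjusted p = 0.0632), 3.86 for Tbx5 (SE 1.54, adjusted p = 0.113) and 3.29 for Smarcd3 (SE 1.30, adjusted p = 0.110), again in edgeR. Set library against library with day 5 of 2iJ+B-A, mesoderm day 4 was at least 4 times higher in 10 of 10 members (6.71% of tested genes), and 0 were lower (14.9%). Mesoderm day 3 was at least 4 times higher in 2 of 10, Isl1 and Foxf1a (5.27%), and at least 4 times lower in 2 of 10, Tbx5 and Gata5 (12.6%). In each of the 6 that did not pass, the day 3 level lay below at least 1 day of 2iJ+B-A. The median log2 difference of the 10 members was 4.58, against -0.03 over all tested genes.

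The outcome rested on which mesoderm day was used. With day 4 alone against 2iJ+B-A, 10 of 10 members were higher in edgeR (12.7% of tested genes were), with log2 differences from 4.16 for Foxf1a (adjusted p = 0.044) to 6.82 for Hand2 (adjusted p = 0.0152). The lone library was then assumed to vary like the days of 2iJ+B-A, the only group left with more than 1 library. This also held for the fit of day 3 alone. With day 3 alone, 1 of 9 testable members was higher, which was Isl1 (2.42, adjusted p = 0.023, edgeR), where 8.46% of tested genes were. Foxf1a (3.59, adjusted p = 0.0801), Nkx2-5 (1.83) and Mef2c (1.79) did not pass, and the difference turned negative for Tbx5, Gata5, Smarcd3, Hand2 and Tbx20. Leaving out day 2, 5 or 11 of 2iJ+B-A gave 1, 2 and 2 members, where 7.34%, 4.62% and 6.2% of tested genes were higher. Isl1 was the only member called in the main comparison and under each of its alternatives, with adjusted p-values between 7.36e-08 and 0.0497 in edgeR and DESeq2.

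**Figure D3:**
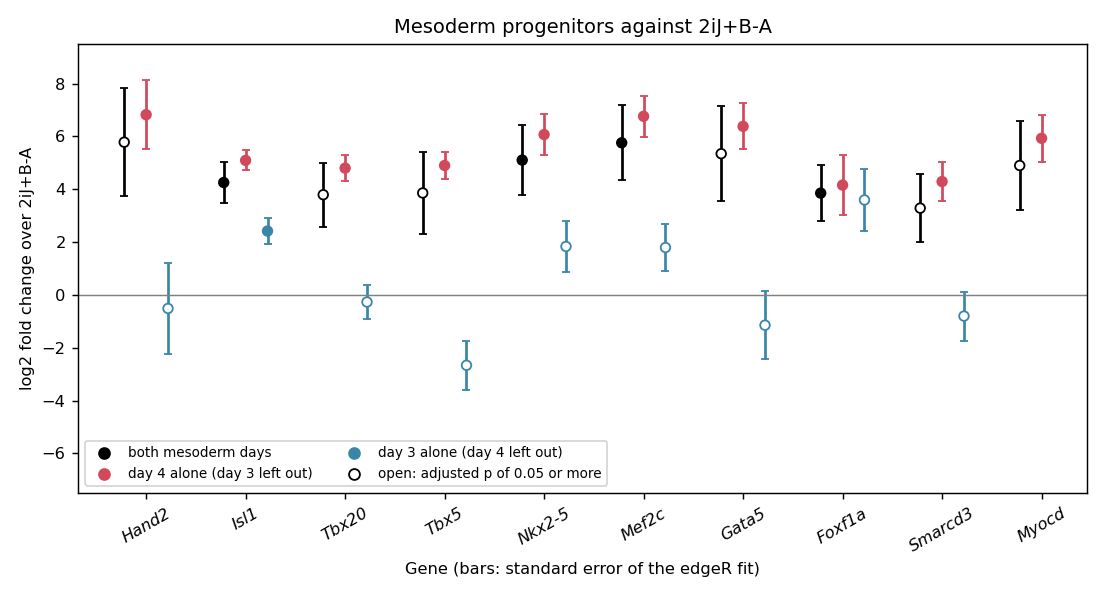
Log2 fold change of each member in mesoderm progenitors over 2iJ+B-A, with the standard error of the edgeR fit as bars, for both mesoderm days, for day 4 alone and for day 3 alone; filled points have an adjusted p-value under 0.05. With day 4 alone all 10 points are filled, with day 3 alone only that of Isl1 is, and Myocd, which did not pass the count filter without day 4, has no point there.

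Lists of related genes were followed in the same comparison, which pools the 2 mesoderm days. In it 11.5% of tested genes were higher and 15.5% lower. Of 25 tested regulators of the heart fields and lateral plate, 13 were higher and 2 lower in the mesoderm progenitors than in 2iJ+B-A in edgeR. The summed level of this list was 909 CPM on mesoderm day 3 and 914 CPM on day 4. At the 4-fold mark 5 of the tested genes were higher on day 4 and 4 lower. Mesp1 (9.37 on the log2 scale, adjusted p = 0.0109), Six2 (6.54, adjusted p = 0.00269) and Hoxb1 (5.47, adjusted p = 0.0111) rose, and Tbx18, a factor of the epicardium and sinus horn, fell by 5.26 (adjusted p = 0.0158, all edgeR). Between mesoderm days 3 and 4, Mesp1 (181 and 6.36 CPM) and Six2 (59.3 and 33.4 CPM) were lower on day 4. Hoxb1 was higher (21.2 and 44.9 CPM). Of 15 cardiac signals and receptors, 11 were higher and 0 lower. Their list summed to 627 CPM on mesoderm day 3 and 1158 CPM on day 4. In it 4 genes were at least 4 times higher on day 4 and 1, Fgf8 (54.3 and 7.17 CPM), at least 4 times lower. Fgf8, a growth factor of the streak and second heart field, rose by 7.39 (adjusted p = 0.00638), Wnt2 by 6.84 (adjusted p = 0.00302), Bmp5 by 5.88 (adjusted p = 0.0469) and Kdr, a receptor of early vascular and cardiac mesoderm, by 5.11 (adjusted p = 0.00634, all edgeR).

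Of 21 tested cofactors and partners of the members, 10 were higher and 0 lower in edgeR, with smaller differences (list median 0.72 on the log2 scale). Zfpm2 and Zfpm1, which bind GATA factors, rose by 3.32 (adjusted p = 0.0419) and 1.81 (adjusted p = 0.0457), and Lmo4 and Tcf12 by 2.55 (adjusted p = 0.00378) and 1.68 (adjusted p = 0.0032, all edgeR). Their levels on days 3 and 4 were close together for Lmo4, at 51.6 and 54.5 CPM. Zfpm2 was at 0.954 and 2.39 CPM.

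No muscle gene was called higher with the 2 mesoderm days pooled. Of 17 tested cardiac muscle genes 0 were higher (11.5% of tested genes) and 1 was lower (15.5%) in edgeR. Whether 0 of 17 differs from that share was not tested. The lower gene, Nppb, fell by 4.89 (adjusted p = 0.0359, edgeR) and had at most 3 counts in the mesoderm libraries. Tnnt2 (4.105, adjusted p = 0.0721) and Tnni1 (3.98, adjusted p = 0.0856) did not pass in edgeR. The list median was -0.34 on the log2 scale. Of 8 smooth muscle genes, 0 were higher and 3 lower in edgeR. Acta2, smooth muscle actin, fell by 4.26 (adjusted p = 0.032), Lmod1 by 2.83 (adjusted p = 0.0279) and Mylk by 2.68 (adjusted p = 0.0418). Acta2 was at 8.84 and 1.52 CPM in the mesoderm progenitors and at 32.3, 200 and 70.3 CPM on days 2, 5 and 11 of 2iJ+B-A. The smooth muscle list summed to 195 CPM on mesoderm day 3 and 65.8 CPM on day 4, against 98.6, 349 and 147 CPM on those days of 2iJ+B-A. Of its uncalled genes, Tagln (123 CPM), Cnn1 (26.8 CPM) and Smtn (29.0 CPM) were highest on mesoderm day 3. Des was highest on mesoderm day 4 (29.6 CPM) and Myh11 on day 5 of 2iJ+B-A (4.07 CPM).

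Markers of neighbouring tissues were read beside the members. Higher and lower calls in the mesoderm progenitors in edgeR were 7 and 0 of 8 primitive streak genes, 4 and 0 of 7 paraxial mesoderm genes, 4 and 1 of 7 blood and endothelium genes, and 0 and 1 of 7 endoderm genes. They were 0 and 1 of 2 neural genes, 0 and 4 of 6 pluripotency genes and 1 and 1 of 8 trophectoderm genes. These calls pool the 2 mesoderm libraries, and the streak and paraxial lists were highest in the earlier one, unlike the members. Paraxial mesoderm genes fell from a sum of 256 CPM at day 3 to 40.6 CPM at day 4, against at most 13.1 CPM in unsorted mESC libraries. By the 4-fold mark, 3 of the 7 tested paraxial genes were lower at day 4 and 1 was higher. Tal1, a factor of blood and endothelium, rose by 5.85 (adjusted p = 0.0463), Lmo2 by 4.64 (adjusted p = 0.00726) and Cdh5 by 4.59 (adjusted p = 0.014, all edgeR), while Gata2 fell by 4.02 (adjusted p = 0.00179). Blood and endothelium genes summed to 22.1 CPM on mesoderm day 3, 105 CPM on day 4 and 500 CPM in the sorted cells, where Gata2 alone was at 460 CPM. The cultures held RNA of several mesoderm types, and their part in the levels of the members was not tested.

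Relatives of the members in the same families were compared with them, per kb of exon. Of 18 paralogs, 15 passed the filter, and in edgeR 0 were higher and 1 was lower in the mesoderm progenitors than in 2iJ+B-A. That gene was Tbx3, also a pluripotency factor, which fell by 1.64 on the log2 scale (SE 0.27, adjusted p = 0.00929). Hand1 was at 21.1 and 270 CPM per kb on mesoderm days 3 and 4, above Hand2 on both days, and it was also at 49.8 CPM per kb on day 5 of 2iJ+B-A and at 18.4 CPM per kb in the sorted cells, where Hand2 was at 0.023. Gata4 and Gata6 were at 57.7 and 30.9 CPM per kb on mesoderm day 4 against 14.4 for Gata5, and unlike Gata5 they were at 24.7 and 6.23 on day 3 and at 18.6 and 5.02 on day 11 of 2iJ+B-A.

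Within the T-box family, Tbx2 was, like Tbx5, low except on mesoderm day 4, with 0.149 and 10.2 CPM per kb on mesoderm days 3 and 4 and at most 0.903 elsewhere. Tbx3 was between 14.5 and 67.9 CPM per kb in all libraries, Tbx4 was lowest on mesoderm day 4 (0.028 CPM per kb), and Tbx1 reached 0.731 there. Among the NK genes, Nkx2-6 had 142 counts on mesoderm day 4 and at most 1 elsewhere, and Nkx2-3 was highest in the sorted cells, at 1.77 CPM per kb. Mef2a and Mef2d were present in every library (2.42 to 6.995 and 8.30 to 22.4 CPM per kb), so that Mef2c was above both only on mesoderm day 4. Smarcd1 and Smarcd2 were likewise present throughout, at 15.7 to 54.8 and 11.8 to 22.4 CPM per kb, and Smarcd3 exceeded Smarcd2 in 1 library, mesoderm day 4. The myocardin relatives Mkl1 and Mkl2 ranged from 2.97 to 4.73 and from 1.91 to 5.43 CPM per kb, Foxf2 was highest on day 11 of 2iJ+B-A (2.42 CPM per kb), and Isl2 and Mef2b had 0 counts in all 8 libraries.

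**Figure D4:**
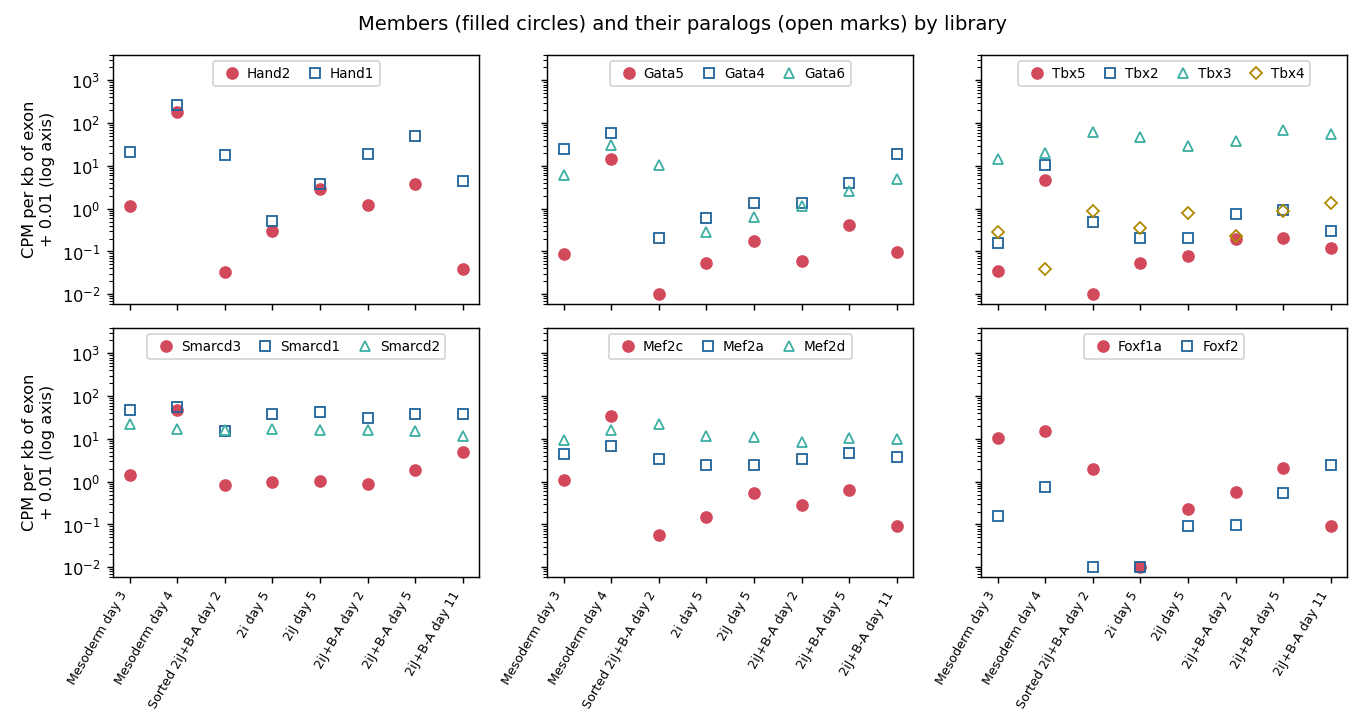
Level of 6 members (filled circles) and of paralogs (open marks) in the 8 libraries, as CPM per kb of exon plus 0.01 on a log axis. Smarcd3 and Mef2c approach or pass their broadly present relatives only on mesoderm day 4, whereas Hand1 and Gata4 are also well above the floor in 2iJ+B-A.

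No member was called between the mESC conditions. Between 2iJ+B-A (3 libraries) and 2iJ (1 library), 0 of 10 members were called by edgeR and 0 by DESeq2. In edgeR 0.0% of tested genes were called, 1290 of 16961 genes and 0 members had an unadjusted p under 0.05, and DESeq2 called 309 genes, 2.16% of those it tested. Log2 differences ran from -0.87 for Nkx2-5 to 1.91 for Foxf1a, with adjusted p-values between 0.863 and 0.999 in edgeR and standard errors of 1.00 to 2.42. With standard errors of this size, differences of several-fold were not detectable. The joint fit takes its spread from the days of 2iJ+B-A and also from the 2 mesoderm days. These standard errors are therefore not a measure of the mESC cultures alone.

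Levels in the mESC libraries still varied beyond counting error. From 2i to 2iJ on day 5, 10 of 10 members were higher in 2iJ, where 53.9% of tested genes were, with 1 library each and no test. Hand2 was 10.2 times higher (95% counting interval 6.24 to 17.6), Gata5 3.83 times (1.204 to 16.0), Mef2c 3.78 times (2.48 to 5.92), Isl1 2.70 times (1.376 to 5.598) and Tbx20 2.19 times (1.42 to 3.44). All 10 levels in 2iJ lay between 0.763% and 2.68% of those on mesoderm day 4, and carry-over of reads from that library was not tested. For Smarcd3 the ratio was 1.03 (0.798 to 1.34), and for Tbx5 and Nkx2-5 the intervals also spanned 1. Hand2 was the only member at least 4 times higher (0.831% of tested genes), and 0 members were 4 times lower (0.165%). Foxf1a and Myocd had 7 and 6 counts in 2iJ and 0 in 2i, at least 2.56 and 2.19 times higher against a floor of 3 counts in the library.

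On the matched day 5, 10 of 10 members were also higher in 2iJ+B-A than in 2iJ, again with 1 library each, where 57.6% of tested genes were. Foxf1a was 9.10 times higher (4.22 to 23.4) and Myocd 4.90 times (2.05 to 14.2), the 2 of 10 at or past 4-fold (4.81% of tested genes), with 0 at 4-fold lower (2.25%). Tbx20 was 3.53 times higher (2.69 to 4.68). For Hand2 (1.32, 1.09 to 1.61), Mef2c (1.19, 0.919 to 1.55) and Nkx2-5 (1.09, 0.421 to 2.93) the ratio was near 1.

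Along 2iJ+B-A, day 5 was above days 2 and 11 in 8 of 10 members, as it was in 32.4% of tested genes. From day 2 to day 5, Gata5 (4 and 41 counts) and Myocd (3 and 36 counts) were at least 4 times higher (2.11% of tested genes), and 0 members 4 times lower (0.572%). From day 5 to day 11, 0 members were at least 4 times higher (0.743% of tested genes) and 4 of 10 were at least 4 times lower (1.09%). The latter were Hand2, with 270 and 2 counts, Foxf1a, with 78 and 3, Mef2c, with 146 and 19, and Gata5, with 41 and 9. The day 11 level over the day 5 level was 0.008 for Hand2 (0.001 to 0.028) and 0.039 for Foxf1a (0.008 to 0.119). Smarcd3 went the other way, with a ratio of 2.64 (2.28 to 3.05), and Isl1 stayed at 1.09 (0.765 to 1.54). With 1 library a day no test was made.

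The levels of the mESC libraries were also set against those of mesoderm day 4. In 2iJ the 10 members were at 0.763% to 2.68% of their day 4 level, and on day 5 of 2iJ+B-A at 1.84% to 13.4%. Outside the members, 29 genes had at least 50 CPM on mesoderm day 4 and more than 10 times their day 3 level. The lowest of these 29 was at 0.989% of its day 4 level in 2iJ and at 1.85% on day 5 of 2iJ+B-A. On day 2 of 2iJ+B-A the lowest was at 0.286%, in 2i at 0.136%, and on day 11 of 2iJ+B-A and in the sorted cells at 0%. The 2 libraries with the higher mESC levels of Hand2, Mef2c and Gata5 were therefore those in which none of the 29 other genes fell near 0, and the part of this shared lower level in the members' differences was not tested. Whether reads of the mesoderm day 4 library had been carried over into these libraries was not tested either. The members' levels in 2iJ and on day 5 of 2iJ+B-A are therefore given as values of those libraries. How much of these levels is expression in the cells was not tested, also where these libraries enter the comparisons above. On day 5 of 2iJ+B-A the share of the day 4 level was lowest for Mef2c (1.84%) and highest for Foxf1a (13.4%).

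**Figure D5:**
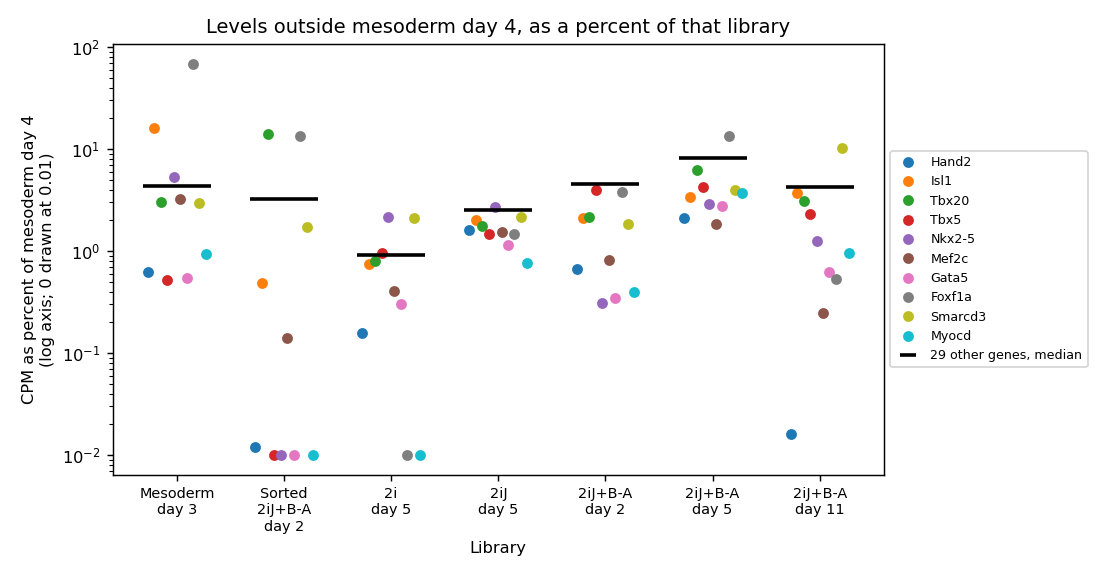
Level of each member outside mesoderm day 4, as a percent of its day 4 level on a log axis, with the median of 29 other genes high on that day as a black bar. In 2iJ the 10 members lie between 0.763% and 2.68%, a narrower band than in any other library shown, while in the sorted cells they run from 0 to 13.9%.

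In the sorted Cdx2-GFP-positive cells, 0 of 10 members were called against 2iJ+B-A by edgeR and 0 by DESeq2, where edgeR called 3.34% of tested genes higher and 2.08% lower (5.42% in all), and 0 members had an unadjusted p under 0.05. Fitted log2 differences were 1.93 for Tbx20 (SE 1.38, adjusted p = 0.407) and 1.24 for Foxf1a (SE 1.24, adjusted p = 0.553, both edgeR), and negative for the other 8. With mesoderm day 3 left out of the joint fit, Isl1 (adjusted p = 0.0437) and Tbx5 (adjusted p = 0.0389) were lower in edgeR, where 5.34% of tested genes were. These tests compare 1 library of another line with 3 of R1, so the line and the sort cannot be told apart.

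Against the unsorted 2iJ+B-A library of the same day, the sorted library split the members. Tbx20 was 6.53 times higher (95% counting interval 5.11 to 8.44, 406 counts) and Foxf1a 3.57 times higher (2.02 to 6.61). Hand2 had 1 count against 67 (ratio 0.018, 0 to 0.107), Mef2c 7 against 51 (0.170, 0.065 to 0.376) and Isl1 6 against 32 (0.232, 0.079 to 0.563). Tbx5 had 0 against 18, at least 4.85 times lower against a floor of 3 counts in the library. At the 4-fold mark this made 1 member higher (7.09% of tested genes) and 4 lower (5.65%). Smarcd3 was level, with a ratio of 0.942 (0.685 to 1.29). For Nkx2-5 and Myocd both libraries were at or under the floor. The sorted library also carried the highest summed level of trophectoderm genes, 3852 CPM against 549 CPM in the unsorted library of that day. Most of this sum was Krt8 (1731 CPM) and Krt18 (1595 CPM). Cdx2 (235 against 15.0 CPM), whose reporter was used for the sort, and Gata3 (105 against 15.7 CPM) were also higher. Tfap2c (147 against 117 CPM) and Elf5 (0.909 against 0.530 CPM) differed less. Hand1 (36.6 against 37.5 CPM) and Eomes (2.68 against 4.16 CPM) were not higher. Against the 3 libraries of 2iJ+B-A, edgeR called 2 of these 8 genes higher, Cdx2 and Krt18, and 0 lower. The higher shares of unmapped read pairs and of pairs assigned to no gene in the sorted library stand beside all of these values.

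Genes whose pattern over the 8 libraries was most like that of each member were found by the root mean square (RMS) difference of centred log2 CPM, among all other genes that passed the filter. Bmp5, a bone morphogenetic protein, was nearest to Hand2 (0.82), followed by Rgs5 and Tal1. Rgs5, a regulator of G protein signalling, was nearest to Mef2c (0.51) and Myocd (0.70) and among the 3 nearest of Gata5, at 8.55 and 542 CPM on mesoderm days 3 and 4. For Isl1 these were Pcdhb22 (0.39), Gpc3 (0.50) and Kdr (0.52), the latter at 67.8 and 305 CPM. Smarcd3 was nearest to Gdf2 (0.51) and Bmp4 (0.63), Nkx2-5 to Fli1 (0.50), Tbx20 to Chrna3 (0.45), Tbx5 to Zar1 (0.63), Gata5 to Gm15219 (0.59) and Foxf1a to Ajap1 (0.92). Between members the closest pair was Myocd and Gata5 (0.57). The 8 libraries include 1 in which nearly all of these genes are highest, so the measure is set largely by that library.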

How the data were processed

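Poly-A RNA was made into strand-specific libraries and sequenced as read pairs. Per the labels and the methods of the study, reads were trimmed with cutadapt and aligned with STAR 2.4.2a to NCBIM37. The authors deposited whole-number counts for each gene, without normalization, and supplied them unstranded and by strand. The reverse-strand counts were used, as the library chemistry requires. The batch adjustment of the study is not part of these counts, and the annotation release is not given in the sources used here. GENCODE vM1 named 37205 of 37620 genes. Among the listed genes, Hdac4, Tnnc1 and Dab2 matched more than 1 identifier and Sox1 matched none, and these are not used here.

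Counts were fitted in edgeR 4.0.16 (R 4.3.3) with TMM scaling, a coefficient for each of 5 groups, 3 residual degrees of freedom and the quasi-likelihood test, over the 16961 genes that reached 10 counts in 2 or more libraries. The days of a group served as its samples. Adjusted p-values (Benjamini-Hochberg) under 0.05 were called. The common biological coefficient of variation was 0.363. Between 2 libraries no test was made. Ratios of CPM carry 95% Clopper-Pearson counting intervals with values under 3 counts set to 3 for 4-fold calls, and intervals cover counting error only. The script was tested on simulated data.

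The members and the gene lists were chosen with earlier results of these data known. Named by rule were all members with every library and their paralogs. From each other list, the rule named at most the 4 genes with the largest called change in mesoderm progenitors against 2iJ+B-A. The 3 genes nearest in pattern were found for each member with at least 10 CPM in some library. The other cardiac muscle genes named, among them those for the step from day 3 to day 4, were chosen after their values were seen. All trophectoderm and smooth muscle genes were also named, outside the rule. Alternatives were DESeq2 1.42.0, its size factors, no filter on low counts, unstranded counts, other references, a fit of only the compared groups, a slope on day and leaving out each replicate. Leaving out the sorted library and the levels relative to mesoderm day 4 were added after seeing the data.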

Additional observations from a re-analysis of the deposited data

Results flagged for a closer look

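Counts on the strand opposite to Smarcd3, which the comparisons did not use, made up a larger share of its counts in 4 libraries than in the 2i library, beyond the counting interval there. The share of counts on both strands was 56.96% on mesoderm day 3, 75.67% in the sorted cells, 61.9% on day 2 of 2iJ+B-A and 49.62% on day 5, against 33.0% in 2i (95% Wilson interval 26.7 to 40.0). On mesoderm day 4 it was 6.86%. For the other members it was between 0 and 9.03% in the 20 values with at least 100 counts on the own strand. Chpf2 lies on the opposite strand over 2466 of the 4545 exon bases of Smarcd3 and had between 4.26 CPM (2i) and 19.5 CPM (day 5 of 2iJ+B-A).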

How the results depend on the processing

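For the mesoderm progenitors against 2iJ+B-A, 4 members were also called in edgeR with the size factors of DESeq2, with unstranded counts, with only the 2 groups fitted and without the sorted library. The count was 8 without a filter on low counts (8.15% of genes were higher), 8 in DESeq2 (14.4%) and 8 with the mean of 2i, 2iJ and 2iJ+B-A as the reference (15.7%). Leaving out 1 library at a time gave between 1 and 10. Over these fits the log2 difference ran from -2.67 to 4.90 for Tbx5, -1.15 to 6.70 for Gata5, -0.80 to 4.29 for Smarcd3, -0.51 to 7.26 for Hand2 and -0.27 to 4.80 for Tbx20, each negative only without mesoderm day 4, where Myocd did not pass the filter. For 2iJ+B-A against 2iJ the count stayed at 0 under each alternative run, and the sign turned for Hand2 with 2i and 2iJ pooled (0.024) and for Gata5 with unstranded counts (-0.30) and without day 5 (from -1.27 to 0.465 when leaving out 1 library). For the sorted cells, leaving out 1 library at a time gave between 0 and 2, and Smarcd3 turned to 0.025 with a slope on day. The cause of these shifts was not tested. Depth sets a floor of 0.0954 to 0.151 CPM, and Tbx5, Nkx2-5, Gata5 and Myocd had between 0 and 41 counts in each library outside mesoderm day 4. No paired analysis was possible because the labels give no replicate numbers, and the numbers used here only name the days of a group.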
